A study of Arabidopsis thaliana with 12 samples.

Results

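Of 32592 Arabidopsis thaliana loci, 36 were expressed in rosette leaves of the accession Col and were at or near 0 in the accession C24. They were chosen by their values: at least 5 RPKM in each of the 3 Col libraries and at most 0.1 RPKM in each of the 3 C24 libraries, with the arginase gene AT4G08870 left out. RPKM counts reads per kilobase of a gene model and per 1e6 reads of its library, and the gene models of a locus were summed. The floor alone was passed by 10813 loci, called Col-expressed loci here. Both conditions together were met by 37 of these with AT4G08870, or 0.342%, and the mirror rule with Col and C24 exchanged gave 14 loci. Because the contrast of Col with C24 chose the loci, it is described with no test.

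Messenger RNA was sequenced from mature rosette leaves of plants 3 weeks old that had not bolted and that grew on soil with 16 h of light at 22 °C and 8 h of dark at 20 °C. The 4 genotypes were Col (Columbia), C24 and their reciprocal F1 hybrids, ColxC24 and C24xCol as the labels spell them. All carry unmodified genomes as far as the labels say. Leaves of each were taken at ZT0, ZT6 and ZT15, where ZT is the zeitgeber time in hours from the start of the light period, which gave 12 libraries, 1 for each genotype and time, so no value has a replicate. How many plants a library holds, and which parent was the mother of each hybrid, is not given in the sources used here.

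Accessions of a selfing plant differ in which genes they carry and in which of these are transcribed. A locus can be missing from one accession, can be present with a diverged sequence, or can be present and silent, for instance through DNA methylation of a nearby repeat or transposon. An F1 hybrid carries 1 copy of each parental chromosome set, so for a locus with transcript from the Col copy alone the mean of both parents lies at 0.5 of the Col level. Which of these states holds for each of the 36 loci was not tested. RNA was measured on bulk leaves, where fewer expressing cells and less RNA per cell cannot be told apart.

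One pair of loci, AT1G24822 and AT1G25097 on chromosome 1, had the same RPKM in all 12 libraries. Their coding sequences, read from RefSeq's TAIR10.1 by locus identifier, are 651 bases long and identical. Another of the 36 loci, AT1G24996, has a coding sequence of 450 bases whose first 404 bases match theirs. Of each of the 3 loci, 100% of the transcript stretches as long as a read occurred more than once in the reference genome. The departure of AT1G24996 from the pair is thus one of annotated coding sequences and does not mark bases unique to it. Its cause was not tested. Bases 331 to 450 of the 3 coding sequences are shown, since they hold the point of departure. Capitals mark the bases after the last shared one.
AT1G24822: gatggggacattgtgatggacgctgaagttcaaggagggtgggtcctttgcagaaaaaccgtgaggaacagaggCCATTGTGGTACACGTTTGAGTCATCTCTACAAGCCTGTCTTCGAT
AT1G25097: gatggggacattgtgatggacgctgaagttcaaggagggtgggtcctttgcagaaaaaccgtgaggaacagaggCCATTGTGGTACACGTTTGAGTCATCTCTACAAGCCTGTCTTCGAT
AT1G24996: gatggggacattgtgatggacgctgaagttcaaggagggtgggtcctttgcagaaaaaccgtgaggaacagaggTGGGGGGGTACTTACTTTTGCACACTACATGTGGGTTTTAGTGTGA

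Depth, estimated from the steps between low RPKM values, (in units of 1e6 reads, M) ran from 16.6 M reads in Col at ZT0 to 26.5 M in Col at ZT15. The C24 ceiling of 0.1 RPKM corresponds to 2.28 to 2.45 reads per kilobase in the C24 libraries. The leaf markers RBCS1A, RCA, LHCB1.1 and CA1 summed to between 36659 and 61823 RPKM in each library. Summed markers of root hairs reached at most 0.0908 RPKM, of seeds at most 0.183 RPKM, and of flowers between 0.514 and 1.55 RPKM.

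Of the 36 loci, 23 were listed at 0 in all 3 C24 libraries and 13 had a value above 0 in at least 1 of them. The 13 include 6 loci of a repeated run on chromosome 1, described below, with at most 0.0208 RPKM in C24. By the estimated depths, 1 read on 1 kilobase gives 0.0408 to 0.0438 RPKM in the C24 libraries. In Col the mean over the 3 times ran from 5.95 RPKM for the noncoding RNA AT2G24755 to 116 RPKM for SADHU1-1. All 36 were above 0 in each of the 6 hybrid libraries, and the lowest of these 216 values was 1.22 RPKM. Nearest to the C24 ceiling on the inside were SADHU1-1, AT5G55790 and AT1G51430, with highest C24 values of 0.0770, 0.0813 and 0.0905 RPKM. Just outside lay AT3G28160 at 0.133, AT1G03410 at 0.206 and QQS at 0.207 RPKM. At the Col floor the lowest Col values were 5.02 RPKM for AT1G51430, 5.22 for CYP71A25 and 5.24 for AT2G24755. AT3G27990 at 4.95, AT5G28919 at 4.86 and AT3G47680 at 4.72 RPKM fell just short of it.

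**Figure D1:**
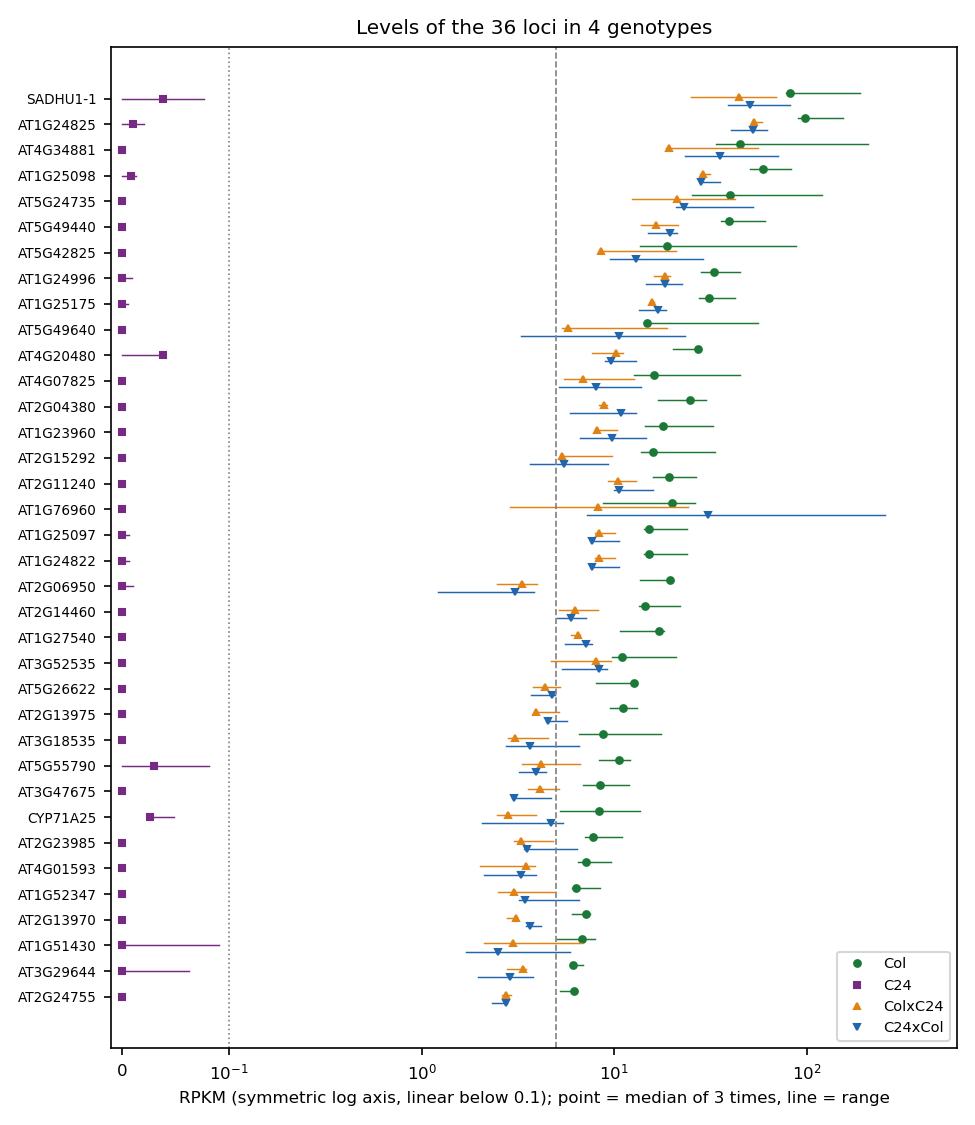
RPKM of each of the 36 loci (rows, ordered by mean Col level) in Col, C24, ColxC24 and C24xCol; points are the median of the 3 times, lines their range, on a symmetric log axis that is linear below 0.1. The dotted and dashed lines mark the C24 ceiling of 0.1 and the Col floor of 5 RPKM that chose the loci; hybrid points lie to the left of the Col point for each locus except AT1G76960 in C24xCol.

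By the words of the annotation, the loci were mostly not genes of known function. Hypothetical, uncharacterized or DUF (domain of unknown function) proteins made up 14 of the 36, or 38.9%, against 7.28% of the Col-expressed loci. Noncoding RNAs made up 9, or 25.0%, against 0.536%. Pseudogenes made up 4, or 11.1%, against 0.148%. The F-box, cytochrome P450 and transposable element classes held 1 locus each, 5 fell into no class, and AT1G24825 is not in the annotation used here. By locus type 21 of the 36 were protein-coding, or 58.3%, against 98.4% of the Col-expressed loci. Pseudogenes by locus type numbered 5, with SADHU1-1 among them, which words of its annotation placed in the transposable element class. An element without such words would fall into another class, so the split between these 2 classes rests on naming. These shares describe a list chosen by its values and have no test.

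The highest Col level belonged to SADHU1-1 (AT2G10410), a member of the Sadhu family of short retroposons, which are elements that spread through an RNA copy. Its Col values were 187, 77.6 and 82.1 RPKM at ZT0, ZT6 and ZT15. In C24 it was listed at 0, 0.0387 and 0.0770 RPKM. ColxC24 had 68.7, 24.9 and 44.3 RPKM, and C24xCol had 81.9, 38.9 and 50.7 RPKM. Every hybrid value of SADHU1-1 was thus below the Col value of the same time, while the highest of C24xCol reached into the range of the Col libraries. Next came AT1G24825, with 153, 89.7 and 97.1 RPKM in Col and at most 0.0208 RPKM in C24. It had 58.1, 52.8 and 51.6 RPKM in ColxC24 and 62.0, 40.5 and 52.3 RPKM in C24xCol, all below the Col values.

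Among the uncharacterized proteins AT4G34881 was highest, with 207, 33.7 and 44.9 RPKM in Col and 0 in each C24 library. It had 55.9, 18.6 and 19.2 RPKM in ColxC24 and 70.7, 35.4 and 23.2 RPKM in C24xCol. AT5G49440 had 60.6, 39.4 and 35.6 RPKM in Col, 0 in C24, and 13.8 to 21.4 RPKM in the hybrids, so that no hybrid value reached a Col value. AT5G42825 was at 87.8 RPKM in Col at ZT0 and at 13.6 and 18.9 RPKM at ZT6 and ZT15. Its ColxC24 values were 20.9, 8.47 and 8.51 RPKM and its C24xCol values 29.0, 12.9 and 9.50 RPKM, again with 0 in C24. For both AT4G34881 and AT5G42825 the hybrid values at ZT0 were above the Col values at ZT6 and ZT15, so the groups overlapped.

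Among the noncoding RNAs AT1G25098 was the highest, at 82.9, 59.0 and 50.5 RPKM in Col and at most 0.0132 RPKM in C24. Its hybrid values lay within 27.8 to 35.5 RPKM, below all Col values. AT5G24735 had 119, 25.4 and 39.7 RPKM in Col and 0 in C24. Its ColxC24 values were 42.2, 12.3 and 21.1 RPKM and its C24xCol values 52.4, 22.9 and 21.0 RPKM. AT1G25175 ran from 27.4 to 42.4 RPKM in Col and from 13.4 to 18.4 RPKM in the hybrids, without overlap. AT2G15292 was lower, with 33.3, 13.7 and 15.9 RPKM in Col and 3.63 to 9.76 RPKM in the hybrids. The other 5 noncoding RNAs had Col means from 5.95 to 13.9 RPKM.

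The 4 loci of the pseudogene class were AT2G11240, AT2G06950, AT2G13975 and AT2G13970, all on chromosome 2. AT2G11240 had Col values of 26.7, 15.9 and 19.2 RPKM and hybrid values of 9.28 to 15.9 RPKM. AT2G13975 lay at 9.49 to 13.1 RPKM in Col and 3.94 to 5.67 RPKM in the hybrids, and AT2G13970 at 6.02 to 7.46 and 2.77 to 4.17 RPKM. By chromosome, 11 of the 36 loci lay on chromosome 1 and 10 on chromosome 2, followed by 5, 4 and 6 on chromosomes 3, 4 and 5. Chromosome 2 thus held 27.8% of them and 15.3% of the Col-expressed loci.

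Few loci carried a named function. CYP71A25, a member of the cytochrome P450 family of heme enzymes that oxidise small molecules, had 8.31, 5.22 and 13.6 RPKM in Col and at most 0.0490 RPKM in C24. Its hybrid values ran from 2.05 to 5.41 RPKM, with the highest just above the lowest Col value. AT1G27540, annotated as an F-box protein, a class that picks targets for ubiquitination, had 18.1, 17.1 and 10.7 RPKM in Col and 5.57 to 7.69 RPKM in the hybrids. The 5 loci in no class were annotated as a putative endonuclease or glycosyl hydrolase (AT4G20480), a protein related to beta-galactosidase (AT5G26622), a tubulin-tyrosine ligase (AT3G18535), a MIP1 leucine-zipper protein (AT3G47675) and a cTAGE family protein (AT1G51430). AT4G20480 had 20.2, 27.1 and 28.03 RPKM in Col, at most 0.0407 RPKM in C24, and 7.70 to 13.03 RPKM in the hybrids. AT5G26622 lay at 8.07 to 13.1 RPKM in Col and 3.68 to 5.25 RPKM in the hybrids. Neither locus overlapped between Col and the hybrids. AT3G18535 had 17.5, 8.76 and 6.58 RPKM in Col and 2.75 to 6.59 RPKM in the hybrids, so its highest hybrid value matched its lowest Col value. AT3G47675 lay at 6.90 to 11.9 RPKM in Col and 2.96 to 5.17 RPKM in the hybrids, without overlap.

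As deposited, median hybrid levels lay at or somewhat below 0.5 of the Col level in both crosses. In ColxC24 the median over the 36 loci of the hybrid value divided by the Col value of the same time was 0.381 at ZT0, 0.468 at ZT6 and 0.456 at ZT15. In C24xCol it was 0.426, 0.496 and 0.501. The median of the mean over the 6 hybrid libraries was 0.463, and 34 of the 36 loci, or 94.4%, had a mean between 0.25 and 0.75; of the Col-expressed loci 14.3% did, with a median of 0.924. Of the 216 hybrid values 213, or 98.6%, were below the Col value of the same time, against 65.3% of the values of the Col-expressed loci. After median-of-ratios scaling, which sets the typical gene equal between libraries, the shares were 96.3% and 49.9%. With that scaling the medians at ZT0, ZT6 and ZT15 were 0.418, 0.592 and 0.484 in ColxC24 and 0.453, 0.537 and 0.533 in C24xCol, on both sides of 0.5. As deposited, all 6 hybrid values were below all 3 Col values for 24 of the 36 loci, or 66.7%. This held for 5.88% of the Col-expressed loci. Col values chose the loci, so these numbers are a description.

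The distance from the parents' mean depended on the scaling of the libraries. As deposited, the median of hybrid level divided by the mean of Col and C24 was 0.925 over the 36 loci and 0.954 over the Col-expressed loci. After median-of-ratios scaling it was 1.02 and 1.01. After that scaling 16 of the 36 loci, or 44.4%, were below the mean of the parents and 20 at or above it. Of the Col-expressed loci 47.0% were below it. As deposited 25, or 69.4%, were below and 11 at or above it, against 68.5% of the Col-expressed loci below it. The share of the 36 was thus near the background under both scalings, and in both sets the side of the parents' mean turned with the scaling.

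**Figure D2:**
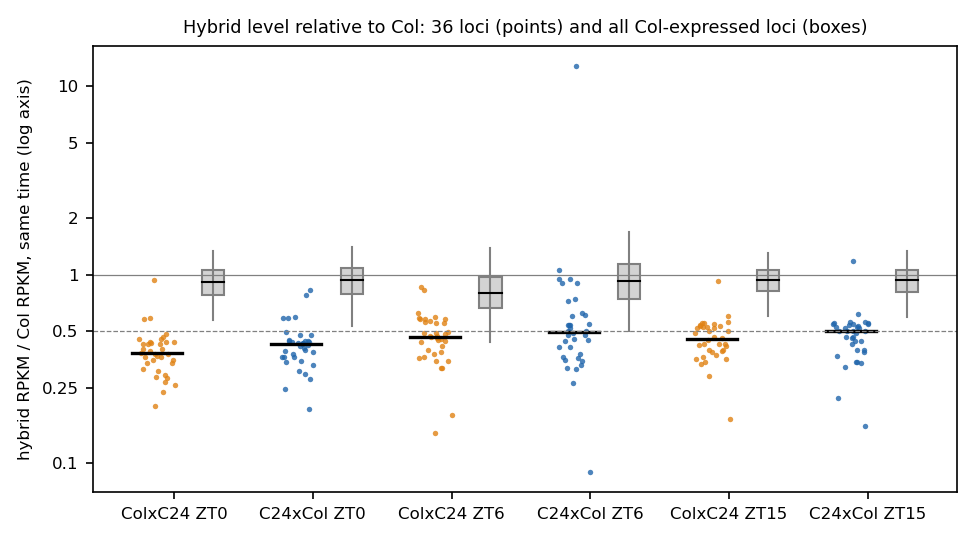
Hybrid RPKM divided by Col RPKM of the same time (log axis) in the 6 hybrid libraries; coloured points are the 36 loci, thick bars their medians, and grey boxes show the median, quartiles and 5th to 95th percentile of the Col-expressed loci. The medians of the 36 loci lie between 0.381 and 0.501, near the dashed line at 0.5, and 1 point in C24xCol at ZT6 stands at 12.8.

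At the low end was the pseudogene AT2G06950, with a mean hybrid level of 0.165 ± 0.040 of Col (SD over the 6 hybrid libraries). It had 19.9, 13.7 and 19.4 RPKM in Col, 3.96, 2.47 and 3.34 RPKM in ColxC24, and 3.83, 1.22 and 3.05 RPKM in C24xCol. All 6 hybrid libraries gave between 0.0894 and 0.199 of Col, and C24 reached 0.0103 RPKM at most. The next lowest were AT2G15292 at 0.318 ± 0.047, AT3G18535 at 0.383 ± 0.11, AT2G14460 at 0.387 ± 0.055, AT4G07825 at 0.395 ± 0.083 and AT2G04380 at 0.399 ± 0.088. AT2G14460, an uncharacterized protein, had 13.4, 14.4 and 22.0 RPKM in Col and 5.07 to 8.27 RPKM in the hybrids. AT2G04380 had 29.8, 16.9 and 24.7 RPKM in Col and 5.89 to 12.98 RPKM in the hybrids. AT2G06950 was the only one of the 36 with a mean under 0.25.

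At the high end AT1G76960, an uncharacterized protein, had a mean of 2.80 with an SD of 4.9, set by 1 library. In Col it had 8.76, 19.8 and 26.2 RPKM at ZT0, ZT6 and ZT15 and it was listed at 0 in each C24 library. In ColxC24 it had 8.22, 2.87 and 24.1 RPKM, and in C24xCol 7.23, 254 and 30.7 RPKM. At ZT0 and ZT15 both hybrids were therefore near Col and not near 0.5 of it. At ZT6 one hybrid was 0.144 and the other 12.8 of Col. On RPKM + 1, C24xCol exceeded ColxC24 at ZT6 by 66.1-fold, the largest ratio of any locus in that pair of libraries.

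The other high loci had means near 0.5, though single times of some departed from it. AT3G52535 had a mean of 0.589 ± 0.23, AT2G11240 of 0.564 ± 0.050, AT1G52347 of 0.555 ± 0.12, AT5G24735 of 0.540 ± 0.19 and AT1G51430 of 0.528 ± 0.22. At ZT6 AT3G52535 was at 0.825 of Col in ColxC24 and 0.945 in C24xCol, and AT1G51430 at 0.860 and 0.744. AT5G24735 was at 0.902 in C24xCol at ZT6. AT2G11240 stayed within 0.483 to 0.627, and AT1G52347 was highest at ZT0, at 0.775 in C24xCol. AT1G52347, a noncoding RNA, had 8.45, 6.31 and 6.01 RPKM in Col and 2.50 to 6.55 RPKM in the hybrids, which reached into the Col range at ZT0. For AT3G52535, 9.59, 8.00 and 4.68 RPKM in ColxC24 and 8.36, 9.16 and 5.36 RPKM in C24xCol stood beside 21.0, 9.70 and 11.01 RPKM in Col. The steadiest of the 36 was AT2G24755, at 0.432 to 0.502 of Col in the 6 libraries. By class the median was 0.467 for hypothetical or uncharacterized proteins, 0.481 for noncoding RNAs and 0.454 for pseudogenes.

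**Figure D3:**
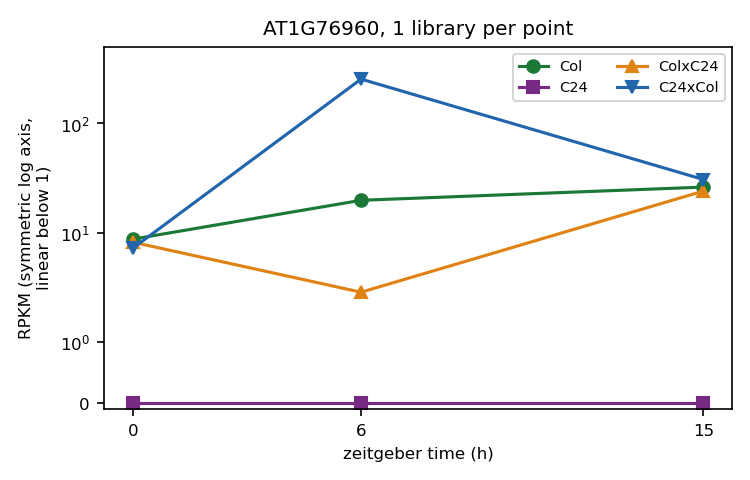
RPKM of AT1G76960 (symmetric log axis, linear below 1) against zeitgeber time in hours, 1 library per point, in the 4 genotypes. At ZT6 C24xCol stands at 254 and ColxC24 at 2.87 RPKM, while at ZT0 and ZT15 both hybrids lie near Col and C24 stays at 0.

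The pair with identical values belonged to a run of repeated loci on chromosome 1 that held 6 of the 36: AT1G24822, AT1G24825, AT1G24996, AT1G25097, AT1G25098 and AT1G25175. AT1G24822 and AT1G25097 each had 23.7, 14.3 and 15.1 RPKM in Col, 0.00666, 0 and 0 RPKM in C24, 10.09, 8.35 and 7.98 RPKM in ColxC24, and 10.6, 7.70 and 7.56 RPKM in C24xCol. They are 2 of the 36 loci, or 5.56%, and 0.388% of the Col-expressed loci (42 in 21 pairs) had such a partner. As shown by the sequences above, reads from the shared stretch cannot be assigned to one of the copies. The read-length stretches of AT1G24996 were all repeated in the reference genome, not only those of the shared part. The values of these loci thus describe the group and not each copy. AT1G24996 had 45.1, 28.3 and 33.1 RPKM in Col and 14.7 to 22.4 RPKM in the hybrids, about as far from Col as the pair.

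Of the 84-base windows of the transcripts of these loci, as long as the reads, 99.4 to 100% occurred more than once in the reference genome, with AT1G24825 not measured. Over all 36 loci, 6 of 35 with windows had at least 50% of them repeated, or 17.1%, against 0.522% of the Col-expressed loci. The sixth was AT4G34881, outside the run, with 82.6% of its windows repeated. None of the windows were repeated in 24 loci. Without the 6 loci of the run, the median hybrid level relative to Col was 0.443.

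Of the other loci of the run, 3 sets of copies are described here. LpxC1, LpxC2, LpxC3 and LpxC5, copies of a deacetylase gene whose bacterial relative acts in lipid A synthesis, had a C24 mean of 0.0663 to 0.113 of the Col mean. The F-box copies AT1G24800, AT1G24881, AT1G25055 and AT1G25211 had 0.125 to 0.196 of Col. The glutamine amidotransferase copies AT1G24807, AT1G24909, AT1G25083 and AT1G25155 went the other way, with a C24 mean of 3.04 to 4.19 times that of Col. MAP70-2 and ASB1, on either side of the run, were at 0.818 and 0.622 of Col. AT1G25141, annotated as an F-box associated effector, had 0.215 of Col. The remaining loci of the run were at most at 0.132 RPKM in any library. For LpxC1, LpxC3, LpxC5, AT1G24800, AT1G24881 and AT1G25055, 100% of the windows were repeated, and AT1G24909 and AT1G25155 had the same values in all 12 libraries. Copies can thus share reads, and their ratios are not separate observations. These ratios have no test.

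**Figure D4:**
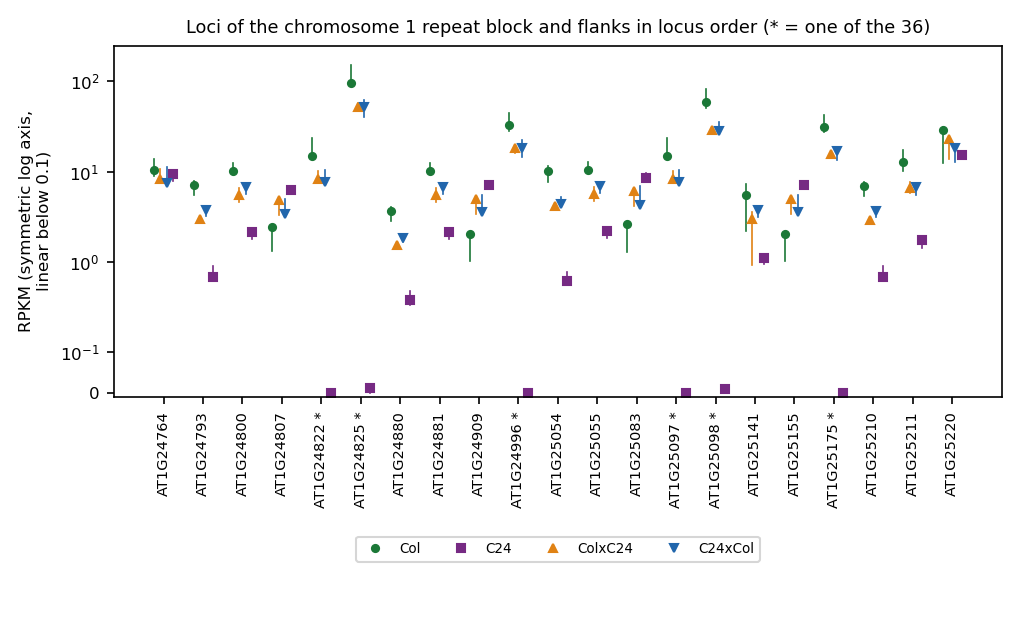
RPKM (symmetric log axis, linear below 0.1) of the loci of the chromosome 1 run and its flanks, in the order of their identifiers, with loci under 1 RPKM in all parental libraries left out; points are medians of the 3 times, lines their range, and an asterisk marks the 6 of the 36. In C24 the 6 lie at or near 0, the LpxC and F-box copies below Col, and the glutamine amidotransferase copies above Col, with the hybrids between the parents.

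Several loci overlapped another gene, and whether the libraries kept the strand is not stated in the labels. AT1G25097 and AT1G25098 of the run lie on opposite strands of each other. AT4G34881 overlaps XDH1, a xanthine dehydrogenase gene of purine breakdown, which was at 14.6, 11.9 and 11.6 RPKM in Col and 14.7, 8.79 and 9.90 RPKM in C24. AT5G42825 overlaps U2AF35B, a splicing factor gene, at 53.1, 34.5 and 33.4 RPKM in Col and 57.2, 31.2 and 30.0 RPKM in C24. AT2G23985 overlaps the ion channel gene CNGC6, at 16.7, 9.91 and 10.5 RPKM in Col and 12.1, 8.07 and 9.38 RPKM in C24. These 3 partners were thus present in C24, where the 3 loci themselves were listed at 0. AT2G04378, opposite AT2G04380, was near 0 in C24 as well, at 0.119, 0.133 and 0.371 RPKM against 35.6, 19.4 and 29.8 RPKM in Col. AT3G47680, on the same strand as AT3G47675, had 4.72, 5.58 and 11.4 RPKM in Col and 0 in each C24 library. AT4G01595, opposite AT4G01593, had 1.24 to 2.40 RPKM in Col and 0 in each C24 library.

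The nearest Col-expressed loci on each side of the 36, with the 36 themselves left out, numbered 63. Their C24 mean divided by their Col mean had a median of 0.848. It was 0.908 over the 10732 Col-expressed loci of chromosomes 1 to 5 outside the 36. Under 0.5 of Col were 9 of the 63, or 14.3%, against 3.95% of the others. Of these 9, 5 belong to the chromosome 1 run, where copies can share reads. Outside it 4 of 58 neighbours, or 6.90%, were under 0.5 of Col.

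The reciprocal hybrids did not enter the choice of the loci and were compared with each other. A limma fit of cross and time to log2(RPKM + 1) of the 6 hybrid libraries, over 16962 loci that averaged 1 RPKM or more there, called none between C24xCol and ColxC24 at an adjusted p under 0.05 (0%). Of loci without a difference, a share of about 0.05 would pass an unadjusted p under 0.05 by chance, and 875 of the 16962 passed it. None of the 36 was called, and 3 of the 36 had an unadjusted p under 0.05. These were AT4G34881 (higher in C24xCol by 0.50 ± 0.17 on the log2 scale, SE), AT5G42825 (0.38 ± 0.14) and SADHU1-1 (0.35 ± 0.14), each with an adjusted p of 0.636 in limma. The median difference, C24xCol minus ColxC24, was 0.07 over the 36 and 0.08 over all loci tested. Of the 36, 23 were higher in C24xCol as deposited and 17 after median-of-ratios scaling, so no direction of the list is given. The spread in this fit is the residual of cross by time with 2 degrees of freedom and not that of replicates.

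The same fit compared the times of day, again only in the hybrids. An F test over ZT0, ZT6 and ZT15 called 4355 of the 16962 loci, or 25.7%, and 10 of the 36, or 27.8%, so the share of the 36 was near the background. Their direction was mostly downward from ZT0. From ZT0 to ZT15, 10 of the 36 fell and none rose at an adjusted p under 0.05, where 10.5% of all loci fell and 10.4% rose. From ZT0 to ZT6, 8 fell and 2 rose, where 12.2% of all fell and 6.14% rose. From ZT6 to ZT15 only AT1G51430 was called, downward, where 3.8% of all loci fell and 4.52% rose. The median change from ZT0 to ZT15 was -0.28 over the 36 and 0.04 over all loci tested, and from ZT0 to ZT6 it was -0.36 and -0.11. Median-of-ratios scaling moved the median of all loci from ZT0 to ZT6 to 0.01 and that of the 36 to -0.23.

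The counts changed when single libraries were left out. Each such fit had 1 residual degree of freedom in place of 2 and a single library at that time. The part of this loss in the changes cannot be told apart from that of the library. The count of 10 in the F test was 1 without ColxC24 at ZT0 and 1 without C24xCol at ZT0. It was 17 without ColxC24 at ZT6, 16 without C24xCol at ZT6, 5 without ColxC24 at ZT15 and 1 without C24xCol at ZT15. It was 4 when all loci with any value above 0 were tested. From ZT0 to ZT15, none of the 36 was called without ColxC24 at ZT0, without C24xCol at ZT0 or without C24xCol at ZT15, and 2 fell without ColxC24 at ZT15. Without either ZT6 library 13 fell and 4 rose. From ZT0 to ZT6, none was called without either ZT0 library, and 6 fell and 1 rose without either ZT15 library. Over that interval 10 fell and 3 rose without ColxC24 at ZT6, and 9 fell and 2 rose without C24xCol at ZT6. Over all loci the F test called from 1099 to 7745 when 1 hybrid library was left out.

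The largest falls from ZT0 to ZT15 were in AT5G49640, AT4G34881, AT5G42825 and AT5G24735. AT5G49640, an uncharacterized protein, had 18.8, 5.36 and 5.74 RPKM in ColxC24 and 23.2, 10.6 and 3.27 RPKM in C24xCol. It fell by 2.03 ± 0.36 (SE) on the log2(RPKM + 1) scale (limma adjusted p = 0.020). AT4G34881 fell by 1.53 ± 0.20 (adjusted p = 0.0103) and AT5G42825 by 1.36 ± 0.17 (adjusted p = 0.00859). Their overlapping partners XDH1 and U2AF35B were also highest at ZT0 in both hybrids, at 13.3 and 14.8 RPKM for XDH1 and 35.0 and 49.3 RPKM for U2AF35B, and their part in these falls was not tested. The noncoding RNA AT5G24735 fell by 1.12 ± 0.23 (adjusted p = 0.0282).

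AT4G07825, an uncharacterized protein, fell by 1.16 ± 0.15 from ZT0 to ZT6 (limma adjusted p = 0.0095), from 12.7 to 5.50 RPKM in ColxC24 and from 13.7 to 5.19 RPKM in C24xCol. SADHU1-1 fell by 1.24 ± 0.17 over the same interval (adjusted p = 0.0106), with both hybrids lowest at ZT6. AT2G15292 fell by 0.95 ± 0.18 (adjusted p = 0.0254). The remaining 2 loci called by the F test were the noncoding RNAs AT1G52347 and AT3G52535.

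AT1G51430, the cTAGE family protein, moved the other way. It had 2.98, 6.83 and 2.11 RPKM in ColxC24 and 2.50, 5.91 and 1.70 RPKM in C24xCol, so both hybrids were highest at ZT6. It rose by 0.98 ± 0.15 from ZT0 to ZT6 (limma adjusted p = 0.0148) and fell by 1.34 ± 0.15 from ZT6 to ZT15 (adjusted p = 0.0107). The noncoding RNA AT4G01593 also rose from ZT0 to ZT6, by 0.68 ± 0.16 (adjusted p = 0.0392), from 2.02 to 3.86 RPKM in ColxC24 and from 2.10 to 3.94 RPKM in C24xCol. Its F test had an adjusted p of 0.0524. In Col AT1G51430 was highest at ZT6 too, at 7.94 RPKM, whereas AT4G01593 was highest at ZT15, at 9.58 RPKM.

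In both hybrids 24 of the 36 loci, or 66.7%, had their highest value at ZT0, against 32.1% of the Col-expressed loci. In Col, which entered the rule, 27 of the 36 were highest at ZT0, against 39.8% of the Col-expressed loci. After median-of-ratios scaling the hybrids' count was 19 and the background 30.1%, and after quantile normalization it was 18 and 28.01%. Outside the chromosome 1 run 19 of 30 loci were highest at ZT0 in both hybrids.

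**Figure D5:**
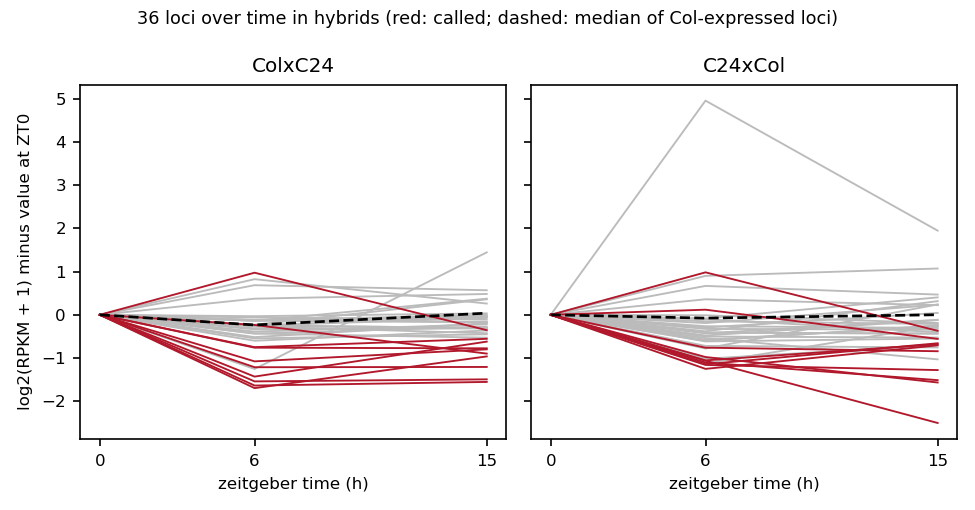
Change of log2(RPKM + 1) from ZT0 against zeitgeber time in hours for each of the 36 loci in ColxC24 (left) and C24xCol (right); red lines are the 10 loci called over time, grey lines the other 26, and the dashed line is the median of the Col-expressed loci. All 10 red lines end below 0 at ZT15, and AT1G51430 peaks at ZT6; the grey line that reaches 4.96 in C24xCol is AT1G76960.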

How the data were processed

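The authors deposited, per the file headers, 1 RPKM value for each of 38710 gene models in each of 12 libraries. The genome build was TAIR9, per the submitters' processing notes, and reads were 84 bases long, per the labels' protocols. For the aligner, the read counter and multiply matching reads, nothing is given in the sources used here. A build made from Col can lose reads of diverged C24 copies; this was not tested. RPKM was summed over gene models to 32592 loci, of which 31786 were matched by identifier to the RefSeq TAIR10.1 annotation. Files and reference differ in release, so no positions are printed.

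Depth was estimated from single-model genes: 33.3 to 38.3% of values under 3.5 reads lay within 1% of a whole read, so depths are approximate. Repeats were counted as 84-base windows found more than once in TAIR10.1. The hybrids were tested with limma 3.58.1 in R 4.3.3 on log2(RPKM + 1), with empirical Bayes moderation and a trend, two-sided, with Benjamini-Hochberg adjustment over all 16962 loci averaging 1 RPKM or more in the 6 hybrid libraries. A fold on this scale understates changes of low loci. The code was tested on simulated data. Other parts used Python 3.11.15, numpy 2.4.6 and pandas 2.3.3.

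Members, lists and tests were chosen with earlier results of these data known. Named in full were the 8 highest loci in Col, the 6 highest and 6 lowest in hybrid level relative to Col, loci with identical values, up to 8 loci called in the hybrids and up to 4 per class, plus the 3 loci nearest each threshold on each side. AT1G76960 at ZT6, AT2G24755, AT4G01593 and the loci of the chromosome 1 run were also described after their values were seen. Other scalings, pseudocounts, filters, thresholds and libraries left out were tried.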

Additional observations from a re-analysis of the deposited data

Results flagged for a closer look

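AT1G76960 moved in opposite directions in the reciprocal hybrids. From ZT0 to ZT6 its log2(RPKM + 1) changed by -1.25 in ColxC24 and by 4.96 in C24xCol, and from ZT6 to ZT15 by 2.70 in ColxC24 and by -3.01 in C24xCol. Each value is the difference of single libraries, and whether these changes differ between the hybrids was not tested. Over all times together, C24xCol minus ColxC24 was 2.07 ± 1.21 (SE) for AT1G76960, with an adjusted p of 0.636 in limma. At ZT6, 36 loci were at least 10-fold higher in C24xCol than in ColxC24 on RPKM + 1 and 1 was at least 10-fold lower. AT1G76960 was the only one of the 36 studied loci among those higher in C24xCol. The next highest ratios of that pair of libraries were those of the chitinase gene CHI, at 93.8 RPKM in C24xCol and 0.971 RPKM in ColxC24, and of PCR1, at 282 and 6.52 RPKM. SAG13, a senescence-associated gene at rank 6, had 33.1 and 0.373 RPKM, and the lipid transfer protein gene LTP3 at rank 8 had 88.2 and 3.55 RPKM. In Col at ZT6, CHI, PCR1, SAG13 and LTP3 were at 6.68, 2.09, 7.30 and 691 RPKM. C24 at ZT6 had 18.5, 37.1, 5.80 and 2.15 RPKM of them. These 4 genes were chosen after their values were seen.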

How the results depend on the processing

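The number of loci, 36, was 23 with a C24 ceiling of 0, 62 with a Col floor of 2 RPKM and 21 with a floor of 10 RPKM. With ceilings of 0.05 and 0.2 RPKM it was 32 and 37, and 43 without any 1 of the times. It was 33 with the highest gene model of each locus in place of the sum, and 33 after median-of-ratios scaling. The median hybrid level relative to Col, 0.463, was 0.508 after median-of-ratios scaling and 0.514 after quantile normalization, and 0.437 to 0.482 under the other alternatives tried. Chosen after seeing the data, leaving out the chromosome 1 run, AT1G76960 or the C24xCol library at ZT6 gave 0.443, 0.462 and 0.453. For single loci 140 of 144 alternative values moved by less than 1 SD over the 6 hybrid libraries. Those that left out a time averaged part of the same 6 values and by arithmetic could not move that far. AT1G76960 thus counted as unmoved though its mean went from 2.80 to 0.964 without ZT6. The 4 values that moved further all rose after median-of-ratios scaling. No locus was called between the reciprocal hybrids in limma under any alternative, with 652 to 1007 loci at an unadjusted p under 0.05 in those that kept all libraries. Between times, 1576 loci were called with no filter on low values and 9510 in a fit to all 12 libraries, against 4355. Without 1 hybrid library, 1099 to 7745 loci and 1 to 17 of the 36 were called: in ColxC24 1422, 7664 and 1391 loci, with 1, 17 and 5 of the 36, without ZT0, ZT6 and ZT15, and in C24xCol 1099, 7745 and 1130, with 1, 16 and 1. With no filter on low values 4 of the 36 were called. The cause of these shifts was not tested. No pairing by replicate was possible, since the labels carry no replicate numbers. Time, which the hybrids share, was a term of the fit, so the reciprocal hybrids were compared within times. At about 2 reads per kilobase the C24 ceiling cannot separate no transcript from a trace.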
